A study of Mus musculus with 24 samples.

Results

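The 9 genes described here encode enzymes of the mevalonate and sterol synthesis route, namely Hmgcs1, Mvk, Pmvk, Mvd, Idi1, Fdps, Fdft1, Sqle and Lss. They were chosen by name out of 56923 gene identifiers. The choice centres on Sqle, which the study named from the comparison of genotypes at postnatal day (P) 7, so that comparison of Sqle is described here without a test. RNA was measured in nuclei of cardiomyocytes (CMs). The nuclei had been sorted with an antibody to PCM1, which belongs to the centriolar satellites and coats the nuclei of CMs. The controls (XMLC2-Casp2fl/fl) carry the floxed Casp2 alleles without Cre, and the Casp2-depleted mice (XMLC2+Casp2fl/fl) carry the same alleles with a Cre driven by the CM-specific XMLC2 promoter. Each genotype was sampled at P1, P7 and P14 with 4 libraries, and every library is a pool, of 15 hearts at P1, 6 at P7 and 2 at P14. The spread between libraries is therefore one between pools and not between animals, and fewer nuclei of a type cannot be told apart from less RNA per nucleus.

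Sterol synthesis starts from acetyl-CoA. HMG-CoA synthase (Hmgcs1) makes the substrate of HMG-CoA reductase, whose product mevalonate is phosphorylated by mevalonate kinase (Mvk) and phosphomevalonate kinase (Pmvk) and decarboxylated by Mvd to isopentenyl diphosphate. Idi1 isomerizes this unit and Fdps joins units to farnesyl diphosphate, from which the isoprenoid branch also draws. Squalene synthase (Fdft1), squalene epoxidase (Sqle) and lanosterol synthase (Lss) then commit the carbon to sterols and close the ring system. When sterols in the membrane of the endoplasmic reticulum are low, the transcription factor SREBP2 is released and acts on the promoters of these genes through sterol regulatory elements, together with NF-Y and Sp1.

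NF-Y binds the letters CCAAT, and the promoters of the members were searched for these letters because they are a feature of the genes that the choice did not use. In the window from 250 bases before to 50 bases after the annotated start site (GRCm39, both strands), 7 of the 9 members held CCAAT, against 39.9% of the 21618 promoters of protein-coding genes. The Sp1 letters GGGCGG were also found in 7 of 9 members, against 42.6% of all promoters. Of the members, Hmgcs1 held TCACNCCAC, 1 spelling of a sterol regulatory element, as TCACCCCAC starting 232 bases before its start site, against 1.34% of all promoters. Other spellings were not searched, so the other members are not shown to lack such an element. No member held the E-box CACGTG, which 7.86% of promoters hold. Matches to different letters did not overlap each other in the members. The stretches of the first enzyme, of the farnesyl diphosphate synthase that had no reads and of squalene epoxidase are printed as the gene's strand reads them, outside annotated exons, with CCAAT and its reverse complement ATTGG in capitals.
Hmgcs1, chr13:120151795-120151914, plus strand: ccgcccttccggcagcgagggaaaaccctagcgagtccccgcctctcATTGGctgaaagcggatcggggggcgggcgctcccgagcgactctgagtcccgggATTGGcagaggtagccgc
Fdps, chr3:89009336-89009455, minus strand: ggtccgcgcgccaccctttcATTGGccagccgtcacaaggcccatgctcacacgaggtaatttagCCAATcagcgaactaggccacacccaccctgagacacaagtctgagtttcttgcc
Sqle, chr15:59186749-59186868, plus strand: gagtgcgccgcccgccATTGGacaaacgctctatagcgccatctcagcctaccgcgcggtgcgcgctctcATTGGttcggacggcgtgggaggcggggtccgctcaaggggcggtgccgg

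In Sqle the nearer ATTGG starts 63 bases and the farther 117 bases before the start site. In its printed stretch Fdps holds a pair in opposite orientations, ATTGG at 100 and CCAAT at 55 bases before the start. Another CCAAT starts farther out, at 180 bases. Sqle and Fdps, with few or no reads, thus carry the same letters as Hmgcs1, which had reads in 15 libraries. A match is a description of the letters and not of a site in use.

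The 21 libraries that the study kept held 891817 to 2924097 reads on genes and 7628 to 17770 genes with a read. The 3 libraries left out for low quality, namely control replicate 1 of P1 and, at P14, control replicate 3 and Casp2-depleted replicate 1, stay out of the fits unless all 24 libraries are stated, and are named below where their reads bear on a member. In the kept libraries a count of 0 allows a level of up to 1.03 to 3.36 RPM, the reads scaled to a library's total on genes, which covers counting error only. CM markers summed to 12689 to 89623 RPM in these libraries, and 9 or 10 of the 10 CM genes had reads in each. Casp2 itself had 9 reads over the 4 P7 control libraries and 8 over the 4 P7 Casp2-depleted libraries, and none in any kept library of P1 or P14, so its level did not check the genotype labels at this depth.

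Few reads fell on these enzymes in CM nuclei. The 9 genes together took 2692 reads in the 21 libraries. Fdft1 had 1104 reads in 19 libraries, Pmvk 584 in 18, Hmgcs1 508 in 15, Mvd 249 in 14, Lss 120 in 6, Mvk 79 in 6 and Sqle 48 in 6. Idi1 and Fdps had 0 reads in all 24 libraries. The filter, a minimum of 10 reads summed over libraries with 3 or more libraries read, left 7 members among 20368 tested genes. Fdft1, Pmvk, Hmgcs1 and Mvd thus had reads in all 6 groups, Sqle, Mvk and Lss in 4 groups each, and the isomerase Idi1 and the synthase Fdps in none. Whether reads on Fdps or Idi1 were set aside at counting, as shared with another gene model, was not tested.

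Counts ran over whole genes, so a longer gene collects more reads, and each member was set beside protein-coding genes within 1.2 times its length. Fdft1 (34839 bases) had more reads than 75.0% of such genes, Hmgcs1 more than 72.4%, Pmvk more than 80.7% and Mvd more than 74.0%. Sqle (16175 bases) had more reads than 32.9% of genes of like length, Lss more than 33.3% and Mvk more than 34.7%. For Fdps (18326 bases), 9.93% of genes of like length had no read, and for the shorter Idi1 (6951 bases) 35.5% had none. Per length, therefore, Fdft1, Hmgcs1, Pmvk and Mvd lay in the upper part of genes of like length and Sqle, Lss and Mvk in the lower part.

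**Figure D1:**
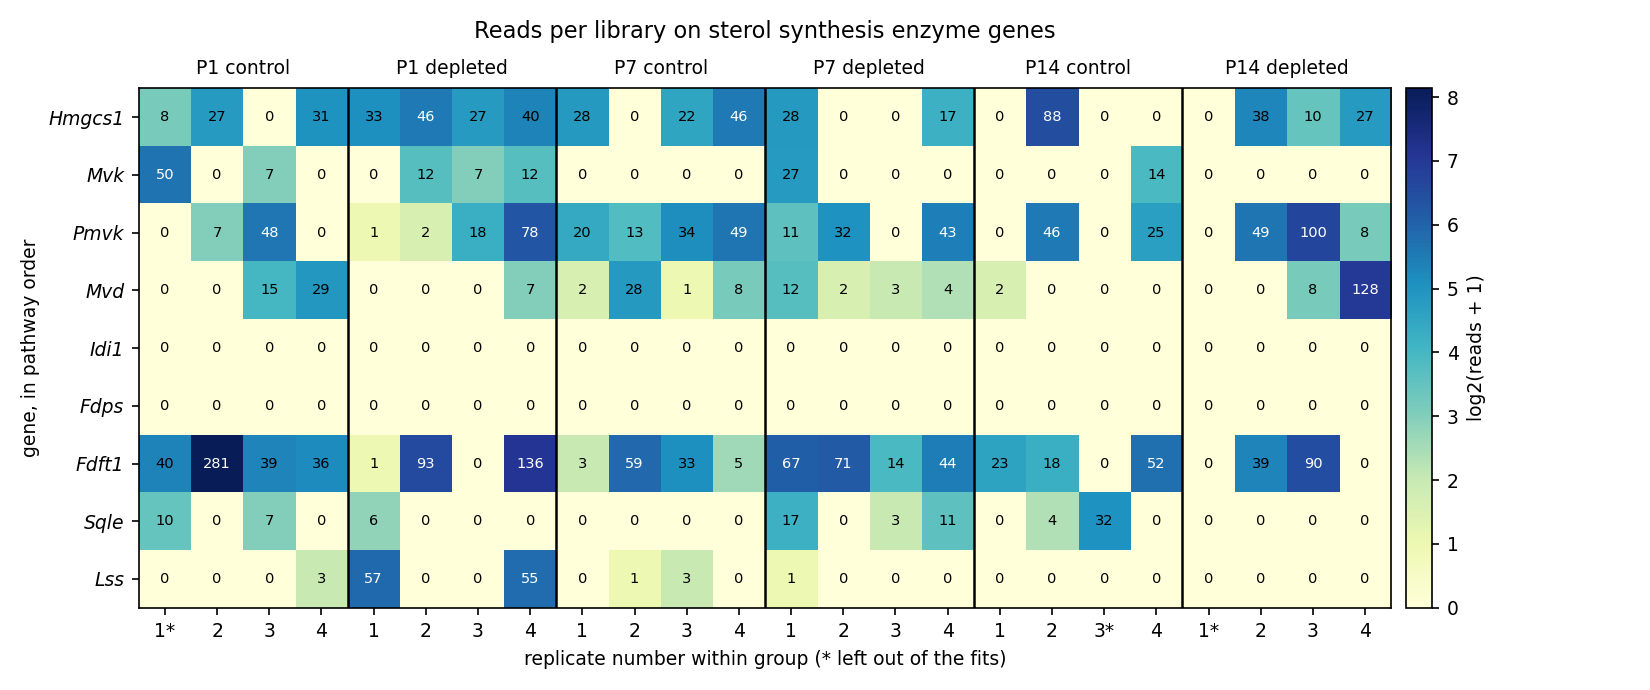
Reads on each of the 9 enzyme genes (vertical axis, in pathway order) in each of the 24 libraries (horizontal axis, replicate numbers within the 6 groups, left-out libraries starred), with color giving log2(reads + 1). Idi1 and Fdps are at 0 throughout, the Fdft1 row reaches 281 reads in P1 control replicate 2, and Sqle has reads in 3 of 4 P7 Casp2-depleted libraries and in no P7 control library.

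Several members lie across other genes. The last kilobase of Fdft1 lies wholly under Ctsb and that of Lss wholly under Gm15343, and 61.7% of the last kilobase of Sqle lies under Washc5, in each case on the opposite strand. The strand setting of the counting is not given in the sources used here. In the deposited counts, 54.5% of 3108 genes that lie wholly inside genes of the opposite strand only had reads, against 5.61% of 784 genes that lie inside genes of the same strand only and 64.0% of genes with no overlap. The counts of opposite strands were thus largely separate.

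Squalene epoxidase (Sqle, ENSMUSG00000022351, chromosome 15 from 59186869 to 59203043, plus strand of GRCm39) carries out the first oxygenation of the sterol route and is a rate-limiting step of it. At P7 the 4 Casp2-depleted libraries held 17, 0, 3 and 11 reads of Sqle (replicates 1 to 4), and the 4 control libraries held 0 each. Depleted replicate 2 was at the level of the controls, so the groups overlap at 0. In CPM, where library totals are scaled by TMM, the mean was 4.42 ± 4.01 (SD, n = 4) in the depleted group. Pooled over the 4 depleted libraries the level was 4.92 CPM, 10.1-fold higher than the 0.485 CPM that 3 reads over the 4 control libraries give. Folds of this kind take the reads of the other group as exact and leave out the spread between pools. Without depleted replicate 1, which holds 17 of the 31 reads, the fold is 6.95, and it ranges up to 12.7 when another depleted library is left out.

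Other genes showed the same pattern and its converse. Of the 20368 tested genes, 93 (0.457%) had reads in at least 3 of the 4 P7 Casp2-depleted libraries and 0 in all P7 controls, and 113 (0.555%) showed the opposite pattern. Sqle belongs to the former, and it was chosen from this contrast, so its place there is a description.

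At P1, Sqle had 7 reads in control replicate 3 and 6 in Casp2-depleted replicate 1, and 0 in the other 5 kept libraries. The groups overlap, and the log2 difference between genotypes was -1.03 ± 2.66 (SE, edgeR adjusted p = 1). Its sign rests on control replicate 3, without which it was 3.38 (edgeR adjusted p = 0.819). The left-out P1 control replicate 1 held 10 reads of Sqle.

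At P14, Sqle had 4 reads in control replicate 2 and 0 in the other kept libraries of both genotypes. Against 3 reads over the depleted libraries, the control level was 1.49-fold higher, from 4 reads in 1 library (edgeR adjusted p = 0.55). The spread between pools does not separate the genotypes. The left-out P14 control replicate 3 held 32 reads of Sqle and no read of any other member. At 30.1 RPM this is the highest Sqle level of the 24 libraries, above the 7.58 of the richest P7 depleted library. That left-out library had 2049 detected genes and 16.1% of uniquely placed reads on no gene. The kept P14 controls had 7628 to 13651 genes and 63.7 to 75.2% of such reads. With all 24 libraries in the fit, Sqle had reads in 2 of 4 P14 controls and 0 of 4 P14 depleted libraries, and the edgeR adjusted p was 0.265. The depleted genotype had the higher Sqle reads at P7. At P14 the kept control reads were 4, in 1 library, so a change of the genotype with more reads is not shown. The test of such a change uses the P7 contrast and was not made.

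Between days, Sqle in controls went from 7 reads over 3 libraries at P1 to 0 over 4 at P7, 3.31-fold lower with the 0 set to 3 reads. It then had 4 reads over 3 libraries at P14, 2.02-fold higher than at P7 on the same setting. In the Casp2-depleted libraries it went from 6 reads over 4 libraries at P1 to 31 over 4 at P7, a log2 difference of 2.42 ± 2.64 (SE). At P14 it had 0 reads over 3 depleted libraries, 7.46-fold lower than at P7 on that setting. These comparisons use the P7 libraries from which Sqle was chosen and are given as values only. In order of the mean level over kept libraries, P7 depleted came first, followed by P1 control at 1.64 ± 2.84 CPM (SD, n = 3), P14 control at 0.997 ± 1.73 (SD, n = 3) and P1 depleted at 0.752 ± 1.50 (SD, n = 4), with P7 control and P14 depleted at 0. The 3 middle groups do not differ beyond their spread, and each has reads in 1 library.

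**Figure D2:**
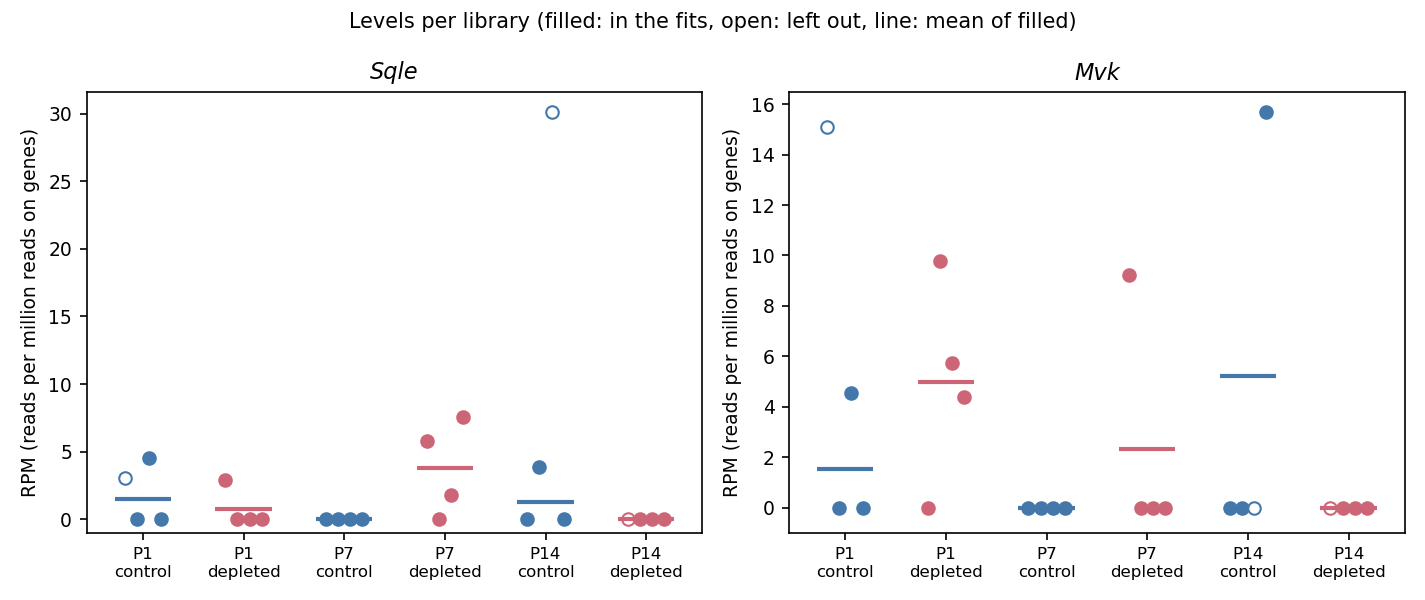
Levels of Sqle (left) and Mvk (right) in RPM (vertical axis) in the 24 libraries by group (horizontal axis), with filled points for libraries in the fits, open points for left-out libraries and a line at the mean of the filled points. The highest Sqle point, 30.1, is the left-out P14 control replicate 3, and the filled points of Mvk at P7 are at 0 in all but 1 Casp2-depleted library.

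Of the mevalonate enzymes, Hmgcs1 (ENSMUSG00000093930, chromosome 13) makes HMG-CoA. At P1 it had 0, 27 and 31 reads in the kept controls and 27, 33, 40 and 46 in the Casp2-depleted libraries. At P7 it had 0, 22, 28 and 46 reads in controls and 0, 0, 17 and 28 in depleted libraries. At P14 it had 0, 0 and 88 reads in controls and 10, 27 and 38 in depleted libraries. Each genotype pair overlaps on each day.

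Within the Casp2-depleted libraries, Hmgcs1 was lower at P7 than at P1 without overlap between the groups, at 6.24 ± 7.22 CPM against 21.7 ± 7.11 CPM (SD, n = 4 each). It is singled out here after its values were seen. The log2 difference of -1.78 ± 1.96 (SE) did not pass the test (edgeR adjusted p = 1), and 1.95% of all tested genes had groups that do not overlap in this comparison. In the other 6 comparisons no member had groups without overlap. Of all tested genes, 3.40%, 1.64% and 5.15% did so between genotypes at P1, P7 and P14, 9.76% and 15.4% in controls from P1 to P7 and from P7 to P14, and 13.2% in depleted libraries from P7 to P14.

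Mvk (ENSMUSG00000041939, chromosome 5), which phosphorylates mevalonate, resembled Sqle in having reads in 6 libraries only. It had 0, 7 and 0 reads in the kept P1 controls (replicates 2 to 4) and 0, 12, 7 and 12 in the P1 Casp2-depleted libraries (replicates 1 to 4). At P7 it had 27 reads in depleted replicate 1 and 0 in the other 7 libraries, and at P14 it had 14 reads in control replicate 4 and 0 in the other 5 kept libraries. With the 0 of P7 controls set to 3 reads, the P7 depleted level was 8.83-fold higher, all of it from 1 library. The unadjusted p was 0.0459 and the adjusted p 1 in edgeR. On the same setting the P14 control level was 7.07-fold higher than at P7, again from 1 library. Here the unadjusted p was 0.0456 and the adjusted p 0.328 in edgeR. Among the kept libraries, P1 control replicate 3 and P7 depleted replicate 1 had reads of both Mvk and Sqle. The latter had reads of all 7 detected members and 17770 detected genes, the most of any library.

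Pmvk (ENSMUSG00000027952, chromosome 3), the next kinase, was among the most regular members, with reads in 18 of 21 libraries. Its reads at P7 were 13, 20, 34 and 49 in controls and 0, 11, 32 and 43 in Casp2-depleted libraries, with overlapping groups. At P14 they were 0, 25 and 46 in controls and 8, 49 and 100 in depleted libraries, again overlapping. At P1 they ran from 0 to 48 in controls and from 1 to 78 in depleted libraries.

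Mvd (ENSMUSG00000006517, chromosome 8) decarboxylates diphosphomevalonate. At P14 it had 2, 0 and 0 reads in the kept controls and 0, 8 and 128 in the Casp2-depleted libraries. The 128 reads of depleted replicate 4 are 51.4% of all Mvd reads, and the groups overlap at 0, with a log2 difference of 5.74 ± 3.19 (SE, edgeR adjusted p = 0.404). At P7 Mvd had 1, 2, 8 and 28 reads in controls and 2, 3, 4 and 12 in depleted libraries, so all 8 had reads at a low level. At P1 it had 0, 15 and 29 reads in controls and 7 reads in 1 of 4 depleted libraries.

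Fdft1 (ENSMUSG00000021273, chromosome 14), which joins farnesyl diphosphate to squalene just before the Sqle step, had the most reads of the 9 genes. At P7 it had 3, 5, 33 and 59 reads in controls and 14, 44, 67 and 71 in Casp2-depleted libraries. The depleted libraries reached higher but the groups overlap, at 17.3 ± 19.0 CPM against 31.9 ± 19.0 CPM (SD, n = 4 each), a log2 difference of 0.88 ± 1.41 (SE, edgeR adjusted p = 1). At P1 it had 36, 39 and 281 reads in the kept controls and 0, 1, 93 and 136 in depleted libraries, and at P14 18, 23 and 52 against 0, 39 and 90. Both pairs overlap, and P1 control replicate 2 holds 25.5% of all Fdft1 reads.

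Lss (ENSMUSG00000033105, chromosome 10), which closes squalene epoxide to lanosterol after the Sqle step, had 57 and 55 reads in Casp2-depleted replicates 1 and 4 at P1 and 0 in the other 2. The kept P1 controls had 0, 0 and 3 reads. No other library had more than 3 reads of Lss, and no library of P14 had any. At P7, where Sqle had reads in 3 depleted libraries, Lss had 1 read in 1 of them, and 1 and 3 reads in 2 control libraries. The fall of Lss from P1 to P7 in depleted libraries, from 112 reads to 1, did not pass the test (log2 difference -6.08 ± 3.16, SE, edgeR adjusted p = 0.68).

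The members did not move together from library to library. Over the 21 libraries, Pearson's r of the log2 CPM of the 21 pairs of detected members ran from -0.22 to 0.21 with a median of -0.02, as a description over libraries that share depth and day. Many values were 0 beside high values in the same group. Among the members, 24.7% of the values with at least 20 reads in another library of the group were 0, and over all genes 21.2% were. Gaps of this kind were thus about as common in the members as in the other genes.

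No member was called in any of the 7 comparisons, and neither DESeq2 nor limma-voom called one. A call needed both an edgeR adjusted p under 0.05 and a log2 difference larger than 1 in size. Sqle is not counted in the comparisons that use P7 libraries, from which it was chosen. Between genotypes, 0% of all tested genes were called at P1 and at P7, and 0.167% at P14. From P1 to P7, 0.00982% were called in controls and 0.0196% in Casp2-depleted libraries, and from P7 to P14 1.88% and 2.83%. At an unadjusted p below 0.05, Mvk was the 1 of the 6 members tested without Sqle that passed at P7 between genotypes, where 4.22% of all genes did. Mvk also passed between P7 and P14 in controls, where 14.8% of all genes did. In the other 5 comparisons no member passed it. Of all genes, 7.34% did so between genotypes at P1 and 12.8% at P14, 6.67% from P1 to P7 in controls, 7.40% from P1 to P7 in depleted libraries and 16.0% from P7 to P14 in depleted libraries. The change of the genotype effect from P1 to P7 or from P7 to P14 was called for none of the 6 members tested without Sqle, and for 0% and 0.0245% of all genes.

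Medians over the 7 members include Sqle, so those that use P7 libraries hold values of the gene chosen from these libraries. The median log2 difference of the 7 members is given beside that of all tested genes. It was 0.07 against 0.08 between genotypes at P1, -0.38 against -0.03 at P7 and 0 against 0 at P14. From P1 to P7 it was -0.68 against 0.21 in controls and -0.06 against 0.07 in depleted libraries, and from P7 to P14 0.41 against -0.75 in controls and -0.19 against -0.61 in depleted libraries. With genes at 0 in a group set to their bound, the P7 to P14 value in controls was 0.41 against -0.65. In depleted libraries it was 0.49 against -0.53, over the 6 members left once Lss, with 1 read against 0, has no bound, so the sign there rests on whether Lss is counted.

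**Figure D3:**
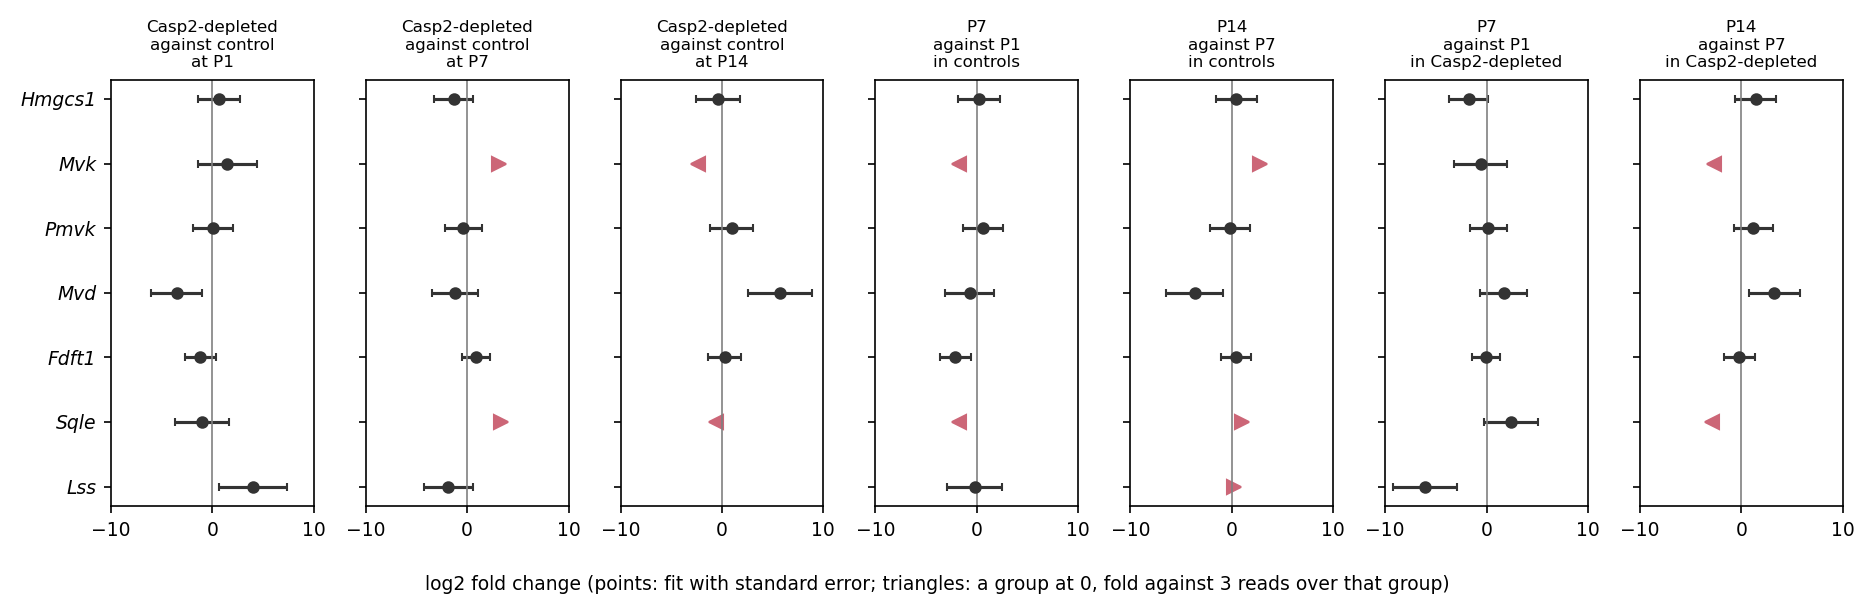
Log2 fold changes (horizontal axis) of the 7 members with reads (vertical axis) in the 7 comparisons (panels), with points and bars for the fitted value and its standard error, and triangles for the fold against 3 reads where a group is at 0. The standard errors run from 1.40 to 3.32, and the right-pointing triangles of Mvk and Sqle at P7 stand at log2 values of 3.14 and 3.34.

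Summed over the 9 genes, the level was 75.1 to 253 RPM in the kept P1 controls (median 76.1) and 42.6 to 125 in P1 Casp2-depleted libraries (median 83.8). At P7 it was 23.2 to 66.0 in controls (median 45.1) and 11.9 to 81.9 in depleted libraries (median 57.1). At P14 it was 19.5 to 152 in controls (median 102) and 107.9 to 192 in depleted libraries (median 167). Genotypes overlap on each day. The 3 kept P14 depleted libraries lie above all 4 P7 depleted libraries, whereas the left-out P14 depleted replicate 1 held no read of any member. The place of P14 depleted replicate 4 rests on 1 gene, as Mvd gave 131 of its 167 RPM. Hmgcs1 and Pmvk, its only other members with reads, gave 27.6 and 8.19 RPM. These sums are in RPM and not TMM-scaled.

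Other readings moved between the same P7 and P14 depleted libraries. The summed CM markers were 47840 to 69480 RPM at P7 and 16299 to 28194 at P14, with all 10 genes read. Endothelial markers were 142 to 369 at P7 and 571 to 612 at P14 (3 to 7 of 8 genes with reads), and fibroblast markers 113 to 181 and 202 to 379 (4 to 8 of 8 genes). Macrophage markers were 81.7 to 308 at P7 and 328 to 356 at P14 (2 to 5 of 8 genes), with Cd68 and the endothelial gene Egfl7 at 0 in every library. Mural markers were 318 to 491 at P7 and 183 to 291 at P14, and adipocyte and erythroid markers overlapped between the days. The mural sum mainly follows Abcc9, with 7968 reads over the 21 libraries against at most 1606 for another mural gene. Pparg likewise leads the adipocyte sum, with 1834 reads against at most 325. Whether these reads come from mural cells or adipocytes was not tested. Reads on no gene made up 34.3 to 64.3% of uniquely placed reads at P7 and 72.2 to 76.1% at P14. Their part in the summed level was not tested.

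**Figure D4:**
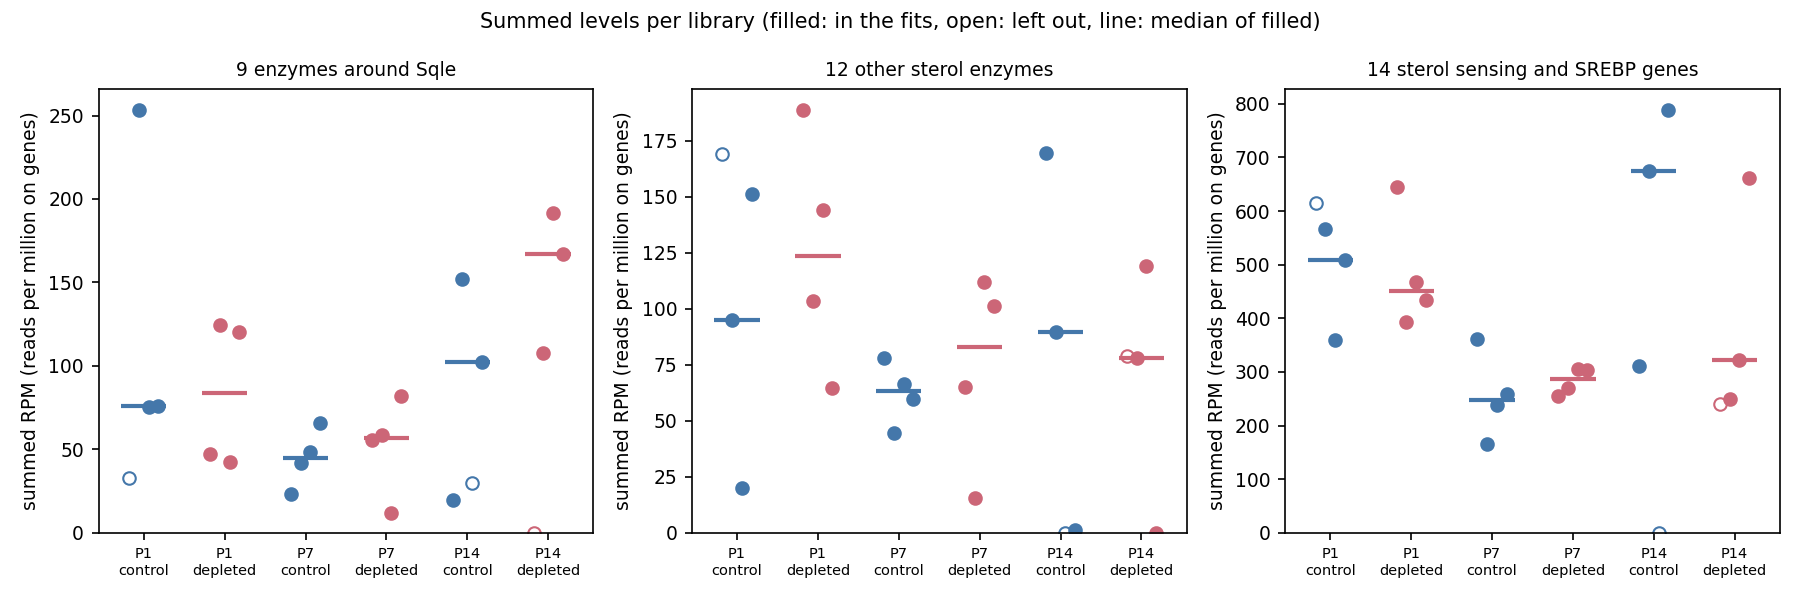
Summed RPM (vertical axes, different scales) of the 9 members, of 12 other sterol enzymes and of 14 sterol sensing genes, by group (horizontal axes), with filled points for libraries in the fits, open points for left-out libraries and lines at the medians of the filled points. In the left panel the 3 filled P14 depleted points lie between 107.9 and 192, above the P7 depleted points, and the open P14 depleted point is at 0. The P14 depleted point at 167, replicate 4, has 131 RPM from Mvd.

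The 12 other enzymes of the route overlapped between the same groups, with 15.6 to 112 RPM in P7 depleted and 0 to 119 in P14 depleted libraries. Across the 21 libraries, the number of members with reads followed the number of detected genes (Spearman's rho 0.73) more closely than the total of reads (rho 0.58), a description over libraries that differ in both. It was lowest in the P14 controls, with 2 to 4 of 9 members and 7628 to 13651 detected genes.

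The wider pathway was followed in 5 lists of 62 genes, of which 58 were tested. None of the 58 was called by edgeR between genotypes, where 7 passed an unadjusted p below 0.05 at P1, 1 at P7 and 6 at P14. Of all tested genes, 7.34%, 4.22% and 12.8% passed it on these days. DESeq2 called 1 of them at P1 (Osbp), 0 at P7 and 2 at P14 (Insig2 and Lbr), on days where it called 98, 19 and 593 of all 20368 genes. Limma-voom with TMM called 0 of the 58 on each day, and 49, 0 and 116 of all genes. edgeR also called none from P1 to P7 in controls (5 at an unadjusted p below 0.05, beside 6.67% of all genes) or in depleted libraries (1, beside 7.40%). Nor did it call any from P7 to P14 in depleted libraries (8, beside 16.0%). In these 3 comparisons DESeq2 called 1, 0 and 3 of the 58, beside 84, 35 and 1155 of all genes, and limma-voom with TMM called 1, 0 and 1, beside 49, 8 and 830. From P7 to P14 in controls, Acacb, the acetyl-CoA carboxylase of the mitochondrial surface, fell from 556 ± 53.5 CPM (SD, n = 4) to 142 ± 86.0 CPM (SD, n = 3), by 1.97 ± 0.58 (SE) on the log2 scale (edgeR adjusted p = 0.0425). The left-out P14 control held 354 reads of Acacb. The edgeR call of Acacb was lost when any 1 of the 4 P7 controls or P14 control replicate 1 or 2 was left out, with adjusted p-values of 0.0652 to 0.245. Acacb serves fatty acid metabolism and is not an enzyme of sterol synthesis itself.

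Of the 12 other sterol enzymes, Msmo1, a C4-methylsterol oxidase, had 2 to 63 reads in each P1 depleted library and 0 in the 3 kept P1 controls. The left-out P1 control held 246 reads of Msmo1, and the difference between genotypes did not pass the test (edgeR adjusted p = 0.644), while limma-voom with quantile normalization called it (adjusted p = 0.0301). Acat2, which makes acetoacetyl-CoA at the entry of the route, had 48 reads in 1 P1 control and 0 in the P1 depleted libraries. At P7 it had 14 reads in 1 of 4 depleted libraries and 6 in control replicate 2. P14 control replicate 2 held 25 reads of Acat2. Ebp, the sterol isomerase, had 12, 21 and 21 reads in 3 of 4 P7 controls and 0 in the P7 depleted libraries, the converse of Sqle on the same day, with an unadjusted p of 0.0188 and an adjusted p of 1 in edgeR. Sc5d, a late desaturase, had 11 and 1 reads in 2 P7 controls and 0 in the P7 depleted libraries. Lbr, which also acts as a sterol reductase, had 114 reads in 1 P14 control and 0 in the P14 depleted libraries.

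Among the regulators, Srebf1, which encodes SREBP1, had 120 reads in 1 P14 depleted library and 0 in the kept P14 controls, and Insig2, which retains SREBP in the endoplasmic reticulum, had 5, 5 and 132 reads in the P14 controls and 0 in the P14 depleted libraries. The edgeR adjusted p was 0.388 for Srebf1 and 0.354 for Insig2. Srebf2, which encodes SREBP2, did not overlap between P7 and P14 controls, at 25.3 ± 3.72 and 89.6 ± 5.94 CPM (SD). Scap, of the same list, did not overlap either, at 48.2 ± 25.7 and 171 ± 74.6 CPM. edgeR called neither (adjusted p = 0.334 and 0.328), DESeq2 called both and limma-voom with TMM neither. In this comparison 15.4% of all tested genes did not overlap. The depleted groups overlapped for both genes, and the left-out P14 control held no read of either. Osbp, an exchanger of sterols between membranes, had 0 reads in the kept P1 controls, 132 and 100 in 2 of 4 P1 depleted libraries and 14 to 270 in each P7 control. Its adjusted p in edgeR was 0.644 between genotypes at P1 and 0.138 from P1 to P7 in controls, and the left-out P1 control held 147 reads. From P1 to P7 in controls, DESeq2 and limma-voom with TMM or quantile normalization called it higher at P7. The edgeR fits of only the groups compared and without robust estimation also called it, and the other alternatives did not. Npc1, which exports cholesterol from lysosomes, had reads in all 8 libraries of P7 and in no library of P14, with an adjusted p of 0.0659 in controls and 0.0852 in depleted libraries in edgeR, while DESeq2 (0.000638 and 0.00344) and limma-voom with TMM (0.000214 and 0.00144) called it lower at P14 in both. Nus1, of dolichol synthesis, had 42 reads in P7 depleted replicate 1, the library with the most Sqle reads, and at most 1 read in every other P7 library.

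Of 18553 tested genes with at least 50 reads, those whose log2 CPM followed Sqle most closely over the 21 libraries were Gm16249 (r = 0.85), Cdkn2d (r = 0.82), Gm6227 (r = 0.78), Gm14250 (r = 0.78) and Adgrg5 (r = 0.77). None belongs to the sterol route. They had reads in 4 to 12 libraries, so each r rests on the few libraries in which Sqle had reads.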

How the data were processed

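Libraries were made from RNA of PCM1-sorted CM nuclei with the QuantSeq 3′ FWD kit. The authors trimmed reads with cutadapt 4.0, aligned them with STAR 2.6.1e to GRCm39 (Ensembl release 108 annotation) and counted them over full genes, introns included, with HTSeq 2.0.3. The deposited values are raw counts per gene, without normalization, and amplified copies were not collapsed as far as the sources state. Library sizes hold reads on genes only. Names, start sites and promoter sequence came from GENCODE vM39 on GRCm39, which names 56236 of 56923 identifiers.

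A quasi-likelihood model of 6 group means was fitted to 21 libraries with edgeR 4.0.16 (TMM, robust, 15 residual degrees of freedom) and tested by its F-test, with Benjamini-Hochberg adjustment over all 20368 tested genes. Standard errors are the log2 fold change over the root of F. CPM values use TMM-scaled library sizes, and log2 CPM adds a prior count of 2. A group at 0 was set to 3 reads over the group for a fold bound, which takes the reads of the other group as exact. The fit was also run on simulated data, whose outcome is not given here and backs no result. The common biological coefficient of variation was 1.5, a wide spread for groups of 3 or 4 libraries. A gene that was not called is thus not shown to be unchanged.

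The members, gene lists and tests were chosen with earlier results of these data known. All members are named. Fold changes are given for Sqle, for members with an unadjusted p below 0.05 and for differences singled out after their values were seen. Srebf2 and Scap are named after their values were seen. Of the other lists, called genes and the 3 smallest p-values per comparison are named, and the 5 genes most correlated with Sqle. One gene that this rule selects is not reported here. Alternatives were filterByExpr, no filter, all 24 libraries, a replicate block, DESeq2 1.42.0, limma-voom (limma 3.58.1) with TMM or quantile normalization, only the groups compared, thinning, the adjusted p alone and leaving out each library. Fits without robust estimation, or with the share of reads on no gene or the number of detected genes as a term, were added after seeing the data.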

Additional observations from a re-analysis of the deposited data

Results flagged for a closer look

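In groups of 4 libraries, 4 of the 22 sets of values examined had 1 library far from the other 3 by Dixon's test, which flags about 1 in 20 sets of continuous values by chance. In each of the 4, the other 3 libraries of the group were at 0, where any read in the fourth library is flagged and that rate does not apply. They were Mvk in P7 Casp2-depleted replicate 1 (12.6 CPM), Mvd in P1 Casp2-depleted replicate 4 (3.49 CPM), Sqle in P1 Casp2-depleted replicate 1 (3.01 CPM) and Lss in P7 Casp2-depleted replicate 1 (0.466 CPM, from 1 read).

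Reads in the libraries that the comparisons do not use stood above every kept library of their group for 2 members. Sqle reached 30.1 RPM in the left-out P14 control replicate 3, against at most 3.90 RPM in the kept P14 controls. Mvk reached 15.1 RPM in the left-out P1 control replicate 1, against at most 4.53 in the kept P1 controls.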

How the results depend on the processing

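Sqle was again not counted where P7 libraries were compared. The number of members called was 0 in each of the 141 recomputed results over the 7 comparisons and their alternatives. The number of genes called over the whole table ranged from 0 to 19 at P7 between genotypes, from 1 to 593 at P14 and from 6 to 1150 from P7 to P14 in controls. The log2 difference of Sqle between genotypes at P7, 5.80 in edgeR, was 3.09 with limma-voom and TMM, 1.89 with quantile normalization and 4.82 with thinned libraries, and its size depends on the prior count because the controls are at 0. Between genotypes at P1, leaving out a library moved it from -1.03 to between -4.33 and 3.38, with a change of sign without control replicate 3. In 37 other refits of Mvk the direction and the side of the threshold did not change. The 119 other refits of Sqle were counted as unchanged in the same way, except between genotypes at P7. There a refit counted as unchanged if its log2 difference lay within the SD between libraries of the main value. Of the other pathway genes, Msmo1 from P1 to P7 in controls turned to -0.90 with all 24 libraries, and the call of Acacb from P7 to P14 in controls was lost with a different filter, with DESeq2 and limma-voom, without robust estimation, with all 24 libraries, with thinned libraries and with a term for the number of detected genes or for reads outside genes.

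The replicate number is called a batch in the submitters' naming of the data, and was checked for a pairing of libraries. Same-numbered libraries of the 2 genotypes deviated together with correlations of -0.06 to 0.19 (median 0.05), over 0.1 in 1 of 9 pairs. With the replicate number as a block, 0 members were called in each comparison, with Sqle left aside as above. The call of Acacb held (edgeR adjusted p = 0.0205), and the log2 difference of Sqle at P7 was 5.84. Sqle had at most 17 reads in a kept library, which limits the precision of its differences.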
